A study of Mus musculus with 18 samples.

Results

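Pnpla2, Lipe, Mgll, Abhd5 and G0s2 encode the enzymes and cofactors of lipolysis, the breakdown of stored triglyceride into fatty acids and glycerol. They were chosen by gene name and are 5 of the 15194 genes that could be joined from the deposited tables of 3T3-L1, a mouse preadipocyte line of fibroblast origin that can be turned into fat cells in the dish. RNA was sequenced in 18 libraries, 3 in each of 6 groups. The differentiated groups were J7_MLKL, J7_RIPK3 and J7_CTL, and the untreated, undifferentiated groups were J0_MLKL, J0_RIPK3 and J0_CTL. MLKL stands for MLKL-/- cells, RIPK3 for RIPK3-/- cells and CTL for control cells, and the labels do not say whether a knockout line is a clone or how it was made. MLKL and RIPK3 are the executioner and its activating kinase in necroptosis, a lytic form of cell death. Groups are named by sample title. In the 6 J7 knockout samples the genotype field names the other knockout, so that J7_MLKL and J7_RIPK3 trade genotypes if that field is the right label. Nothing in the labels ties the libraries to separate cultures, and p-values therefore measure only the spread between these libraries, which may be technical.

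Lipolysis runs as a cascade on the surface of the lipid droplet. Adipose triglyceride lipase, encoded by Pnpla2, removes the fatty acid that starts the cascade, hormone-sensitive lipase, encoded by Lipe, acts mainly on the diglyceride, and monoglyceride lipase, encoded by Mgll, releases glycerol and the last fatty acid. ABHD5, also called CGI-58, binds and activates adipose triglyceride lipase, while G0S2 binds and inhibits it. In the resting adipocyte perilipin 1 holds ABHD5 at the droplet, and catecholamines acting through cAMP and protein kinase A free it. Transcripts of the cascade are known to accumulate when 3T3-L1 cells become adipocytes, and PPARG is a known activator of several of them.

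In the deposited mm10 coordinates, Pnpla2 (ENSMUSG00000025509) lies at chr7:141455198-141460743 on the + strand and Lipe (ENSMUSG00000003123) at chr7:25379527-25398710 on the - strand. Mgll (ENSMUSG00000033174) lies at chr6:88724412-88828360 on the + strand and Abhd5 (ENSMUSG00000032540) at chr9:122351608-122381524 on the + strand. G0s2 (ENSMUSG00000009633) lies at chr1:193272161-193273217 on the - strand. All 5 are annotated as protein-coding, and each has a read count in all 18 libraries.

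RefSeq gives 7 transcription starts for the 5 genes on build GRCm38.p6, with 2 starts each for Lipe and Mgll. The 250 bases before the start are shown for Pnpla2, the lipase that opens the cascade, for G0s2, its inhibitor, and for the upstream start of Mgll, whose transcript departed most from the others in the values that follow. Sequences run 5′ to 3′ on the gene's strand, and capitals mark matches to the motifs searched.
Pnpla2, chr7:141454938-141455187, + strand: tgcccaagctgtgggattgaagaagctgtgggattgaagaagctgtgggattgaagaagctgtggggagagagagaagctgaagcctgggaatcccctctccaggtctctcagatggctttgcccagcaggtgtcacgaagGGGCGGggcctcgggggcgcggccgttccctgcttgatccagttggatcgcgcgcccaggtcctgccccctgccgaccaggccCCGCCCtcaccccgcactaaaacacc
G0s2, chr1:193273189-193273438, - strand: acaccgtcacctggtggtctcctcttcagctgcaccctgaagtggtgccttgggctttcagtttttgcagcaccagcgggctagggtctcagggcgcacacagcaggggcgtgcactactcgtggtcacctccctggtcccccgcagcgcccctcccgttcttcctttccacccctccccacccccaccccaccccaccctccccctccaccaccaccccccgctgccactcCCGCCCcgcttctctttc
Mgll, chr6:88724162-88724411, + strand: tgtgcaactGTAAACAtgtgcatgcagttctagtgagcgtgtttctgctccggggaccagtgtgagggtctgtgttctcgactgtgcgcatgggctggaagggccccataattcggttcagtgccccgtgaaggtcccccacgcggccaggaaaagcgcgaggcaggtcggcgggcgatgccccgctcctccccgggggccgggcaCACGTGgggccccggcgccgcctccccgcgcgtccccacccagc
Both strands of all 7 windows were searched for 6 motifs. GGGCGG, the box bound by Sp1, was found in 5 of the 7 windows, with 2 matches before Pnpla2 and 1 before G0s2, and 32.7% of the 32851 promoter windows of the same length in the RefSeq table hold it. CACGTG, the E-box of USF and SREBP factors, was found in 2 windows, those of the upstream starts of Mgll and Lipe, against 6.02% of all windows. GTAAACA, a forkhead site, was found in 2 windows, that of the upstream start of Mgll and that of the downstream start of Lipe, against 3.17% of all windows. TTGCNNAA, a C/EBP site held by 9.56% of all windows, TATAAA, the TATA box held by 12.4%, and the DR1 element bound by PPARG with RXR, a direct repeat of AGGTCA with 1 base between that 0.0335% hold, were in 0 of the 7 windows. In the 3 windows shown no match overlapped a match of another motif. A match is a string of letters and not a bound site, and a missing match speaks only of these windows.

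Library totals were 20.2 to 36.9 M reads. Reads of both targeted genes were found in all 18 libraries. Mlkl averaged 15.1 ± 1.24 reads per 1e6 reads of the library (CPM) in J7_MLKL, 29.1 ± 2.94 CPM in J7_RIPK3 and 26.3 ± 1.10 CPM in J7_CTL, and 8.05 ± 1.45, 15.9 ± 1.62 and 18.9 ± 0.793 CPM in J0_MLKL, J0_RIPK3 and J0_CTL (SD, n = 3). Ripk3 averaged 9.23 ± 2.40, 10.9 ± 0.750 and 18.3 ± 0.842 CPM in J7_MLKL, J7_RIPK3 and J7_CTL, and 7.45 ± 1.87, 15.9 ± 1.31 and 18.2 ± 1.40 CPM in J0_MLKL, J0_RIPK3 and J0_CTL. Mlkl was thus below CTL in the groups titled MLKL, and by a smaller amount in J0_RIPK3 (log2 -0.25, edgeR adjusted p = 0.00872). Ripk3 was below CTL in J7_RIPK3 and in both groups titled MLKL, while in J0_RIPK3 it was lower by a small amount with overlapping libraries (log2 -0.22, edgeR adjusted p = 0.0216). Reads of a disrupted gene can persist, so these values do not settle the genotype. Libraries J7_MLKL 3 and J0_MLKL 2 stood apart from the others of their groups, with a chi-square per gene of up to 199 and up to 51.3 against them, where other pairs within a group gave 2.70 to 7.33. Of the marker lists, the 10 adipocyte markers summed to 1638 to 4228 CPM in J7_MLKL, 15799 to 17758 CPM in J7_RIPK3 and 15640 to 16463 CPM in J7_CTL, and to 29.1 to 72.7 CPM in the J0 groups. The 5 of 8 preadipocyte and fibroblast markers with counts in all libraries summed to 7115 to 8014 CPM in J7_MLKL, 1723 to 1871 CPM in J7_RIPK3 and 2658 to 2724 CPM in J7_CTL. In J0_MLKL, J0_RIPK3 and J0_CTL they summed to 11072 to 11675, 10097 to 10192 and 7974 to 8459 CPM. Most of each sum is the collagens Col1a1 and Col3a1, at 3699 ± 86.2 and 3872 ± 493 CPM in J7_MLKL. Of the other lists, skeletal muscle markers are not analysed here, since 0 of 6 are listed, and 1 to 3 of 6 macrophage and 1 to 2 of 5 endothelial markers had counts in a group. Summed macrophage markers were 11.9 to 13.3 CPM in J7_CTL, against 73.4 to 78.4 CPM in J0_CTL, most of it Lyz2, and endothelial markers summed to at most 5.12 CPM in any library. Osteoblast, chondrocyte and epithelial lists had counts for 1 to 4 of 5, 2 to 3 of 4 and 1 to 3 of 5 genes.

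In control cells all 5 genes were higher after differentiation, by unequal amounts, and a gene is called higher or lower here where its Benjamini-Hochberg adjusted p from edgeR is under 0.05. Across all genes tested in J7_CTL against J0_CTL, 95.9% were called and 48.2% were called higher and 47.6% lower, so that a call by itself says little and the size is what separates the members. All joined genes had been preselected by the authors' own adjusted p. Shares called, here and below, therefore describe preselected genes and can be high for that reason. Pnpla2 had 1440, 1365 and 1403 CPM in J7_CTL, against 15.9, 14.7 and 16.1 CPM in J0_CTL, a difference of 6.45 ± 0.04 on the log2 scale (SE, adjusted p = 8.44e-33). Lipe had 1124, 1091 and 1101 CPM in J7_CTL, against 19.7, 18.7 and 18.9 CPM in J0_CTL (log2 5.81 ± 0.04, adjusted p = 1.22e-32). In both lipases the libraries of a group lay close together and the groups were far apart. Mgll was a rarer transcript in both states, with 29.5, 30.6 and 33.1 CPM in J7_CTL, against 0.517, 0.789 and 0.525 CPM in J0_CTL (log2 5.62 ± 0.13, adjusted p = 2.03e-22). Its J0_CTL values rest on 18, 23 and 13 reads.

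The activator and the inhibitor lay at the ends of the range. Abhd5 was already read in undifferentiated cells and had the smallest change of the 5 genes, with 295, 280 and 294 CPM in J7_CTL, against 36.9, 36.8 and 36.3 CPM in J0_CTL (log2 2.93 ± 0.04, adjusted p = 6.89e-28). G0s2 was close to absent in undifferentiated cells and had the largest change of the 5, with 573, 580 and 574 CPM in J7_CTL, against 0.144, 0.309 and 0.161 CPM in J0_CTL (log2 11.39 ± 0.08, adjusted p = 1.22e-32). The J0_CTL values of G0s2 come from 5, 9 and 4 reads. As ratios of pooled reads, the J7_CTL level was 2837 times the J0_CTL level for G0s2, 90.1 times for Pnpla2, 57.8 times for Lipe, 51.2 times for Mgll and 7.89 times for Abhd5.

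In J7_RIPK3 against J0_RIPK3, where 97.8% of genes tested were called and 49.3% were called higher and 48.5% lower, the 5 genes were again all higher. Pnpla2 had 1478, 1443 and 1352 CPM in J7_RIPK3, against 12.7, 13.2 and 13.4 CPM in J0_RIPK3 (log2 6.73 ± 0.05, adjusted p = 5.51e-29). Lipe had 1145, 1117 and 1097 CPM in J7_RIPK3, against 14.2, 13.3 and 14.9 CPM in J0_RIPK3 (log2 6.27 ± 0.05). Mgll had 85.1, 76.0 and 73.7 CPM in J7_RIPK3, against 0.669, 0.523 and 0.893 CPM in J0_RIPK3 (log2 6.71 ± 0.11). Mgll thus changed as much as Pnpla2 in these cells, at 108 times the J0_RIPK3 level for each by pooled reads. Abhd5 had 287, 268 and 248 CPM in J7_RIPK3, against 42.3, 42.8 and 44.0 CPM in J0_RIPK3 (log2 2.60 ± 0.05). G0s2 had 781, 739 and 684 CPM in J7_RIPK3, against 0.197, 0.305 and 0.325 CPM in J0_RIPK3 (log2 11.29 ± 0.09).

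In J7_MLKL against J0_MLKL 4 of the 5 genes were higher, and Mgll was not. Here 66.7% of genes tested were called and 35.8% were called higher and 30.9% lower. Pnpla2 had 200, 241 and 443 CPM in J7_MLKL, against 11.2, 20.4 and 14.7 CPM in J0_MLKL (log2 4.23 ± 0.40, adjusted p = 0.000387). Lipe had 128, 151 and 268 CPM in J7_MLKL, against 16.2, 16.8 and 15.7 CPM in J0_MLKL (log2 3.46 ± 0.31, adjusted p = 0.000318). Both lipases were higher in every J7_MLKL library than in any J0_MLKL library, and in both J7_MLKL 3 was the highest. Abhd5 had 80.7, 86.4 and 87.3 CPM in J7_MLKL, against 40.9, 40.7 and 41.8 CPM in J0_MLKL (log2 1.01 ± 0.09, adjusted p = 0.000298). G0s2 had 11.6, 16.7 and 40.7 CPM in J7_MLKL, against 0.0862, 0.388 and 0.116 CPM in J0_MLKL (log2 6.76 ± 0.75, adjusted p = 0.000661). The log2 change of G0s2 was 6.02 without J7_MLKL 3 and 7.69 without J0_MLKL 2, and it was called in both cases. Mgll had 1.04, 1.70 and 0.719 CPM in J7_MLKL, against 1.81, 1.66 and 1.74 CPM in J0_MLKL, which overlap (log2 -0.63 ± 0.33, adjusted p = 0.133). Its J7_MLKL values rest on 27, 37 and 19 reads. Without J7_MLKL 2 the Mgll difference was called lower (log2 -1.01, adjusted p = 0.0266). If the genotype field is followed instead of the titles, the libraries titled J7_MLKL stand against J0_RIPK3 and Mgll differs by 0.70 (adjusted p = 0.193), while those titled J7_RIPK3 stand against J0_MLKL and Mgll is higher by 5.64.

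**Figure D1:**
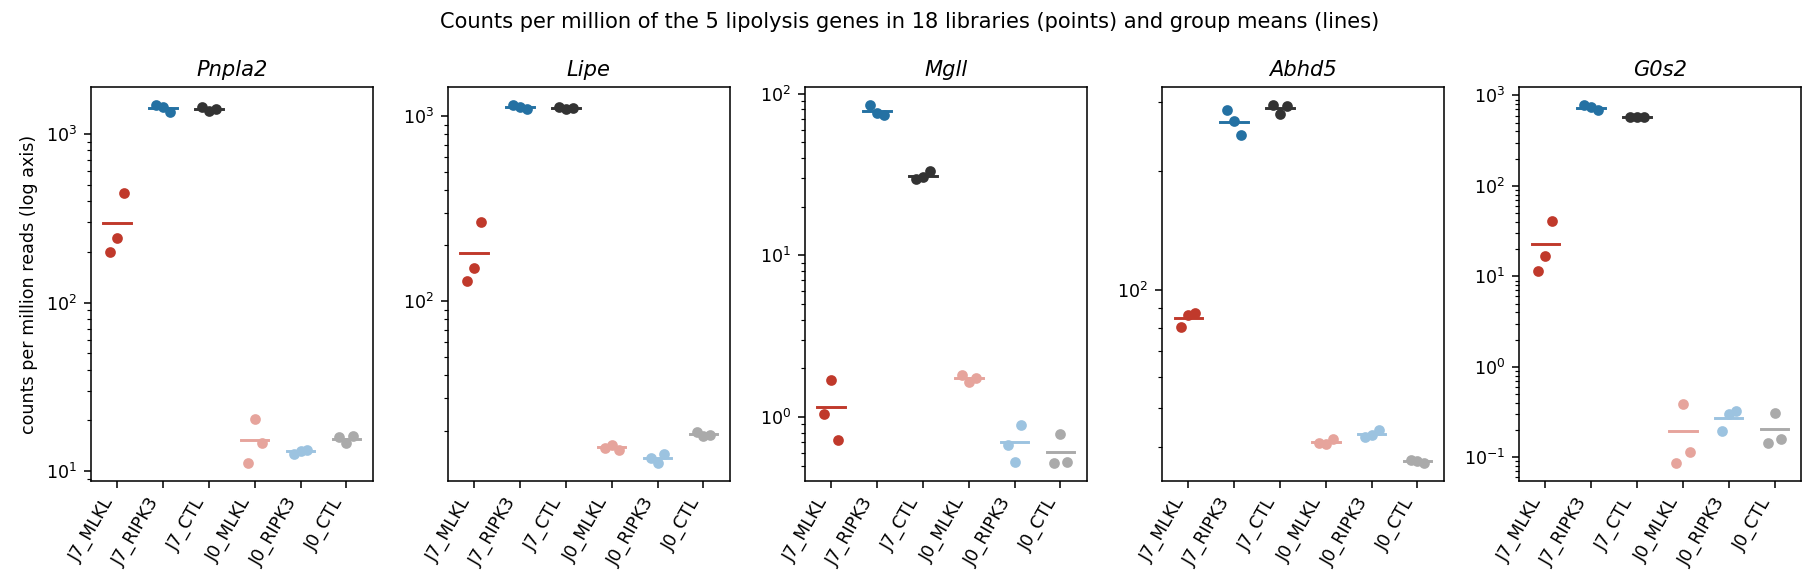
CPM (log axis) of Pnpla2, Lipe, Mgll, Abhd5 and G0s2 in each of the 18 libraries (points) and their group means (lines), in the order J7_MLKL, J7_RIPK3, J7_CTL, J0_MLKL, J0_RIPK3, J0_CTL. J7_MLKL lies between J7_CTL and the J0 groups for all but Mgll, which in J7_MLKL averages 1.16 CPM and lies among the J0 groups.

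The differentiation changes themselves were compared by an interaction term, which asks whether the J7 minus J0 change of a knockout differs from that of CTL. For MLKL the change was smaller for 5 of the 5 genes, where 65.3% of genes tested were called and 26.3% were called lower, with a median difference of 0.30 over all genes. The difference in log2 change was -6.30 ± 0.36 for Mgll (adjusted p = 4.63e-08), -4.69 ± 1.38 for G0s2 (adjusted p = 0.0106), -2.40 ± 0.31 for Lipe (adjusted p = 3.22e-05), -2.27 ± 0.39 for Pnpla2 (adjusted p = 0.000299) and -1.97 ± 0.08 for Abhd5 (adjusted p = 5.56e-09). The G0s2 difference was -3.71 and no longer called without J0_MLKL 2 (adjusted p = 0.168), and -5.42 without J7_MLKL 3. Of the calls over all genes in this comparison 59.8% were higher, and 48.8% were with DESeq2 size factors, a scaling that moved the median of all genes by -0.32.

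For RIPK3 the change differed from that of CTL in 4 of the 5 genes, where 39.0% of genes tested were called. It was larger for Mgll by 1.12 ± 0.30 (adjusted p = 0.00332), for Lipe by 0.48 ± 0.06 (adjusted p = 2.83e-07) and for Pnpla2 by 0.30 ± 0.07 (adjusted p = 0.000475), and smaller for Abhd5 (log2 -0.31 ± 0.06, adjusted p = 0.000104). G0s2 differed by -0.08 ± 0.38 (adjusted p = 0.909). All of these interaction tests share the J7_CTL and J0_CTL libraries. Lipe and Pnpla2 were lower in J0_RIPK3 than in J0_CTL and were not called between J7_RIPK3 and J7_CTL. Their larger changes thus go with a lower start and not with a higher level after differentiation. Abhd5 was higher in J0_RIPK3 than in J0_CTL and lower by a small amount in J7_RIPK3 than in J7_CTL. Grouped by the genotype field instead, 5 of the 5 genes had a smaller change in RIPK3 than in CTL, and in MLKL 1 gene had a larger and 1 a smaller change.

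Among differentiated cells, J7_MLKL had less of all 5 transcripts than J7_CTL, with no overlap between the libraries of the groups. In this comparison 94.9% of genes tested were called, 48.5% higher and 46.4% lower. The largest differences were in Mgll and G0s2, the last enzyme and the inhibitor, with a log2 change of -4.66 ± 0.29 for Mgll (adjusted p = 2.67e-05) and -4.54 ± 0.50 for G0s2 (adjusted p = 0.000250). Mgll rests on 83 reads in J7_MLKL and 2354 in J7_CTL. Lipe differed by -2.49 ± 0.29 (adjusted p = 0.000318), Pnpla2 by -2.14 ± 0.31 (adjusted p = 0.000748) and Abhd5 by -1.67 ± 0.09 (adjusted p = 1.81e-05). The median over the 7263 genes tested was 0.17, and it moved by -0.10 when only library totals were used for scaling. In a bulk sample a smaller share of adipocytes and less transcript per adipocyte cannot be told apart.

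J7_MLKL libraries differed among themselves by gene. In J7_MLKL 3 G0s2 stood at 2.89 times the mean of the other 2 libraries, Pnpla2 at 2.01 times and Lipe at 1.92 times, while Abhd5 stood at 1.05 times and Mgll at 0.523 times. Adipocyte markers differed in the same library, with Retn at 3.32 times, Cfd at 3.26 times, Fabp4 at 2.51 times, Adipoq at 1.94 times and Pparg at 1.44 times the mean of the other 2. Without J7_MLKL 3 the difference to J7_CTL was -5.30 for G0s2, -2.60 for Pnpla2, -2.92 for Lipe, -1.72 for Abhd5 and -4.45 for Mgll, and 5 of 5 were called.

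As a share of the J7_CTL mean, the J7_MLKL mean was 29.3% for Abhd5, 21.01% for Pnpla2, 16.5% for Lipe, 3.99% for G0s2 and 3.72% for Mgll. Of the adipocyte markers, Lep stood at 38.1%, Cfd, the secreted protease adipsin, at 36.0%, Adipoq, the hormone adiponectin, at 26.4%, Fabp4, a fatty acid carrier, at 15.5%, Pparg at 14.5% and Plin1 at 13.8%. Cebpa stood at 9.02%, Cidec, which fuses droplets, at 7.57%, Retn at 7.08% and Slc2a4, the insulin-responsive glucose transporter, at 4.51%. The 5 lipolysis genes thus lay between 3.72% and 29.3%, and the 10 markers between 4.51% and 38.1%. The upper end of the markers is Lep, which rests on 41 reads in J7_MLKL and 114 in J7_CTL. Lep was not called between these groups (edgeR adjusted p = 0.0610). The part of the adipocyte markers in the result was not tested.

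**Figure D2:**
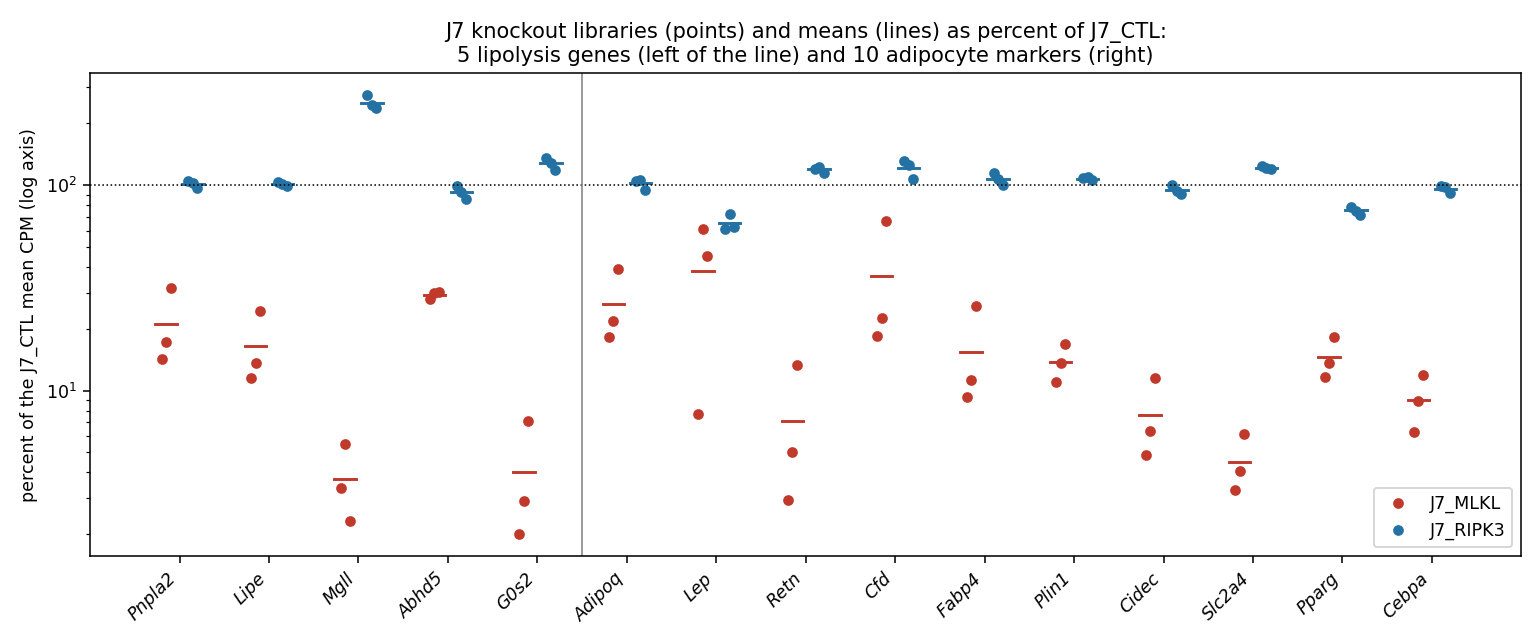
CPM as percent of the J7_CTL mean (log axis) for the 5 lipolysis genes, left of the line, and 10 adipocyte markers, right of it, in the 3 J7_MLKL and 3 J7_RIPK3 libraries (points) with means (short lines). J7_MLKL means run between 3.72% for Mgll and 38.1% for Lep, and J7_RIPK3 means between 65.4% for Lep and 252% for Mgll. Lep rests on 41 reads in J7_MLKL, 69 in J7_RIPK3 and 114 in J7_CTL.

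J7_RIPK3 differed from J7_CTL in 3 of the 5 genes, where 59.1% of genes tested were called, 29.6% higher and 29.5% lower. Mgll was higher (log2 1.34 ± 0.06, adjusted p = 8.28e-15), at 252% of the J7_CTL mean, and every J7_RIPK3 library lay above every J7_CTL library. G0s2 was also higher, by 0.36 ± 0.04 (adjusted p = 1.99e-08), again without overlap. Abhd5 was lower by a small amount (log2 -0.10 ± 0.04, adjusted p = 0.0362), and its libraries overlapped. That call was lost without J7_CTL 1, J7_CTL 3, J7_RIPK3 2 or J7_RIPK3 3, with adjusted p of 0.1098, 0.120, 0.0842 and 0.182. Pnpla2 and Lipe were not called, with log2 differences of 0.04 ± 0.03 and 0.03 ± 0.03.

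Set directly against J7_RIPK3, J7_MLKL was lower in 5 of 5 genes, where 86.8% of genes tested were called, 44.8% higher and 42.0% lower. The difference was -5.93 ± 0.28 for Mgll, -4.81 ± 0.52 for G0s2, -2.44 ± 0.30 for Lipe, -2.09 ± 0.31 for Pnpla2 and -1.48 ± 0.10 for Abhd5, with adjusted p of 0.000780 or less. G0s2 differed by -5.57 without J7_MLKL 3. Scaling by library totals moved the median of all genes by -0.17 in this comparison.

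**Figure D3:**
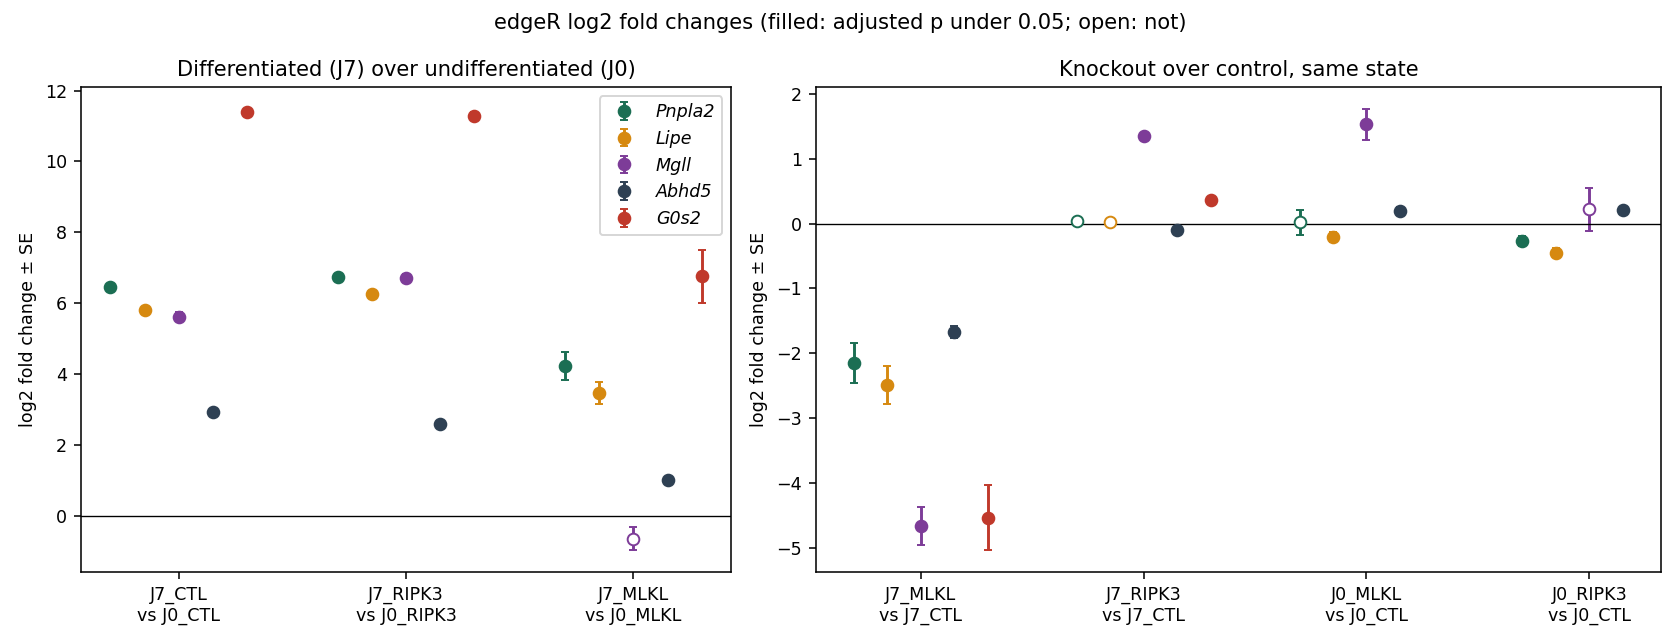
edgeR log2 fold changes (points) with their SE (bars) for the 5 lipolysis genes, differentiated over undifferentiated cells on the left and knockout over control on the right, filled where the adjusted p was under 0.05. The 5 genes fall together in J7_MLKL vs J7_CTL, between -4.66 and -1.67, and Mgll stands at 1.34 in J7_RIPK3 vs J7_CTL.

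Before differentiation Mgll differed most of the 4 genes tested in J0_MLKL against J0_CTL, and G0s2 was too rare for a test. In J0_MLKL against J0_CTL 83.6% of genes tested were called, 40.4% higher and 43.2% lower, and G0s2, with 16 and 18 reads in all, did not pass the filter on low counts. Mgll was higher in J0_MLKL (log2 1.53 ± 0.23, adjusted p = 0.000715), and its libraries did not overlap with those of J0_CTL. It rests on 42, 47 and 45 reads in J0_MLKL, against 18, 23 and 13 reads in J0_CTL. Abhd5 was higher by 0.20 ± 0.06 (adjusted p = 0.0191) and Lipe lower (log2 -0.20 ± 0.08, adjusted p = 0.0388). The Lipe call was lost without J0_CTL 1, J0_CTL 2, J0_CTL 3, J0_MLKL 1 or J0_MLKL 3, with adjusted p of 0.0776 to 0.123, and with DESeq2 size factors or the DESeq2 test. The Abhd5 call was lost without J0_CTL 1, J0_CTL 2, J0_CTL 3 or J0_MLKL 3, with adjusted p of 0.0550 to 0.0835, and with the authors' size factors. With the replicate number as a block in the model both calls were lost (edgeR adjusted p = 0.0919 for Lipe and 0.0560 for Abhd5). Pnpla2 differed by 0.02 ± 0.19 (adjusted p = 0.933), and by -0.22 without J0_MLKL 2, where it was called lower (adjusted p = 0.0448).

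In J0_RIPK3 against J0_CTL, where 55.8% of genes tested were called, 28.3% higher and 27.4% lower, Lipe was lower (log2 -0.45 ± 0.07, adjusted p = 1.82e-05) and Pnpla2 was lower (log2 -0.27 ± 0.08, adjusted p = 0.00518), while Abhd5 was higher by 0.21 ± 0.05 (adjusted p = 0.000470). The libraries of the groups did not overlap for these 3 genes. Mgll was not called (log2 0.22 ± 0.33, adjusted p = 0.597), and G0s2, with 24 and 18 reads in all, was not tested. In J0_MLKL against J0_RIPK3, where 66.5% of genes tested were called, 33.1% higher and 33.4% lower, Mgll was higher by 1.31 ± 0.24 (adjusted p = 0.00190) and Lipe by 0.23 ± 0.09 (adjusted p = 0.0460), and the Lipe call was lost without any of J0_MLKL 1, J0_MLKL 3, J0_RIPK3 1, J0_RIPK3 2 or J0_RIPK3 3 (adjusted p = 0.0634 to 0.186). It was also lost with scaling by total reads (adjusted p = 0.0850), by the sum of listed counts (adjusted p = 0.0561) and with the DESeq2 test (adjusted p = 0.0548). With the replicate number as a block in the edgeR model the Lipe call was lost too (adjusted p = 0.106). Without J0_MLKL 1 Pnpla2 was called higher (log2 0.46, adjusted p = 0.0348).

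Over the 6 groups the order of levels was alike for Pnpla2 and Lipe, with J7_RIPK3 and J7_CTL on top and overlapping, J7_MLKL next and the J0 groups last. For Pnpla2 the 3 J0 groups overlapped in that order, and for Lipe no neighbours below J7_CTL did. For Mgll the order was J7_RIPK3, J7_CTL, J0_MLKL, J7_MLKL, J0_RIPK3 and J0_CTL, and from J0_MLKL down each group overlapped with the next. For Abhd5 J7_CTL and J7_RIPK3 overlapped and all other neighbours were apart. For G0s2 the J7 groups were apart from each other and the J0 groups overlapped.

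Levels of different genes can be compared only per length, here as FPKM (fragments per kilobase of gene and per 1e6 reads). The inhibitor and its lipase changed places with differentiation. In J7_CTL G0s2 averaged 661 ± 4.25 FPKM and Pnpla2 465 ± 12.3 FPKM, and in J0_CTL 0.235 ± 0.104 and 5.16 ± 0.248 FPKM (SD, n = 3). The G0s2 level divided by the Pnpla2 level was 0.200, 0.240 and 0.319 in J7_MLKL, 1.83, 1.78 and 1.75 in J7_RIPK3 and 1.38, 1.47 and 1.42 in J7_CTL, with no overlap between the 3 groups. In the J0 groups it lay between 0.0268 and 0.0839. Among the J7 groups, the lipase transcript exceeded that of its inhibitor in every J7_MLKL library and in no J7_RIPK3 or J7_CTL library.

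The activator showed the other pattern. The Abhd5 level divided by the Pnpla2 level was 0.205, 0.181 and 0.0999 in J7_MLKL, 0.0984, 0.0942 and 0.0929 in J7_RIPK3 and 0.104, 0.104 and 0.106 in J7_CTL, and J7_MLKL overlapped with J7_CTL because of J7_MLKL 3. In the J0 groups it was 1.01 to 1.86. The Lipe level was 0.320 ± 0.00903 of the Pnpla2 level in J7_MLKL, 0.404 ± 0.0108 in J7_RIPK3 and 0.404 ± 0.00487 in J7_CTL. The Mgll level divided by the Lipe level was 0.00854 ± 0.00504 in J7_MLKL, 0.0810 ± 0.00449 in J7_RIPK3 and 0.0326 ± 0.00221 in J7_CTL, and 0.124 ± 0.00844, 0.0565 ± 0.0120 and 0.0372 ± 0.0102 in J0_MLKL, J0_RIPK3 and J0_CTL. Of 20 comparisons of 5 such ratios between a knockout and CTL of the same state, the lowest two-sided exact permutation p was 0.10 (adjusted 0.167), which is the smallest that 3 libraries against 3 allow, so that no ratio could pass the threshold.

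**Figure D4:**
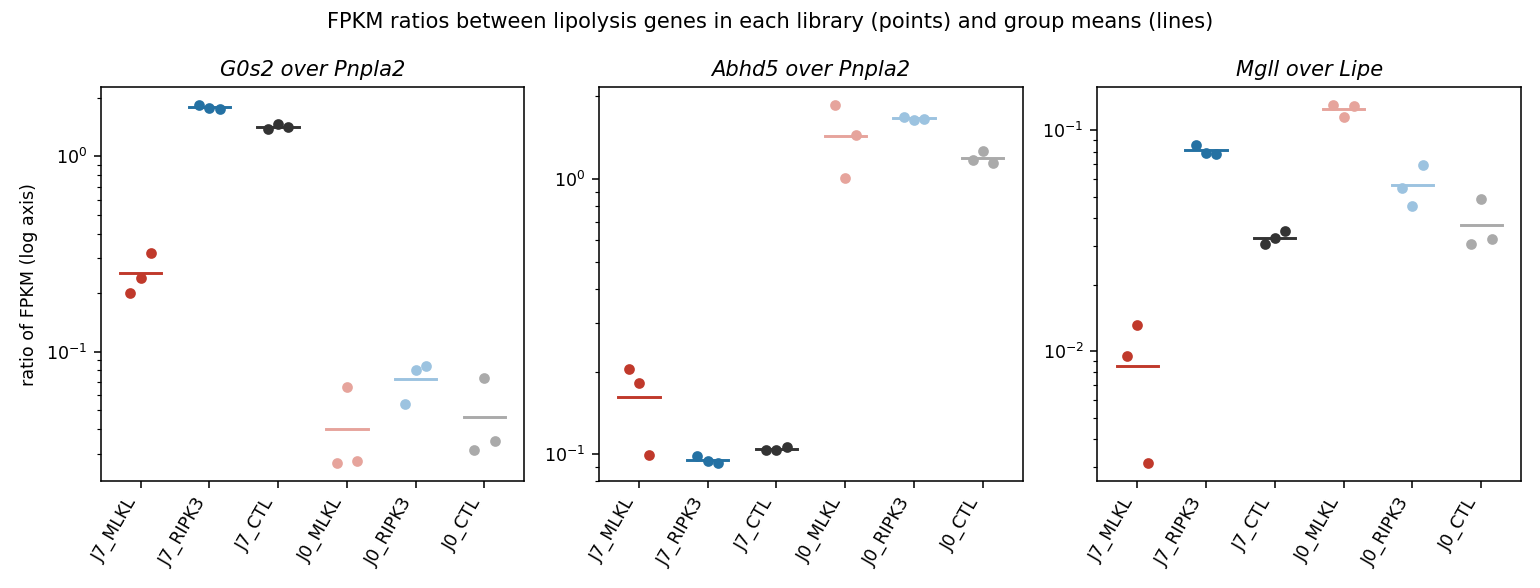
Ratios of FPKM (log axis) of G0s2 to Pnpla2, Abhd5 to Pnpla2 and Mgll to Lipe in each library (points) and their group means (lines). The G0s2 to Pnpla2 ratio averages 0.253 in J7_MLKL, 1.79 in J7_RIPK3 and 1.42 in J7_CTL, and lies under 0.0839 or at it in every J0 library.

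Among the protein-coding genes listed for J7_CTL, G0s2 ranked 38 of 11796 by mean FPKM and Pnpla2 62, with Lipe at 213, Abhd5 at 1091 and Mgll at 6084. In J7_RIPK3 they ranked 24, 64, 206, 1195 and 3380 of 11280. In J7_MLKL, where fewer genes are listed, Pnpla2 ranked 216, Lipe 810, G0s2 981, Abhd5 1813 and Mgll 6027 of 6738.

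By Pearson correlation of log2 CPM over the 18 libraries, the genes whose pattern was most like each member were found among 2494 protein-coding genes with counts in all libraries. They were Cidec, Adig and Hsd11b1 for Pnpla2 (r = 0.997, 0.997 and 0.996) and Retn, Mrap and Adig for Lipe (r = 0.999, 0.997 and 0.997). For G0s2 they were Mrap, Pcx and Slc2a4 (r = 0.999, 0.999 and 0.998), and for Abhd5 Adipor2, Bhlhe40 and Ucp3 (r = 0.997, 0.996 and 0.996). Mgll had Dbt, Pfkp and Gbe1 (r = 0.991, 0.990 and 0.988). Between the members r was 0.971 to 0.997 without Mgll and 0.854 to 0.934 with it. The libraries fall into J7 and J0 clusters that set most of each r, so these values only describe likeness.

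The other acylglycerol hydrolases, a list that adds relatives of Pnpla2 and further lipases, were mixed. Of 15 genes 12 were tested in J7_CTL against J0_CTL, with 8 higher, 2 lower and a median log2 change of 1.23. For all genes tested there, 48.2% were higher and 47.6% lower, with a median of 0.03. In J7_MLKL against J7_CTL 3 of 10 were higher and 7 lower, with a median of -1.54, against 46.4% lower, 48.5% higher and a median of 0.17 for all genes. Pnpla3, a paralog of Pnpla2, was lowest there, with 1.19 ± 0.394 CPM in J7_MLKL and 21.2 ± 1.12 CPM in J7_CTL (log2 -4.07 ± 0.24), and Ces1d, a carboxylesterase with triglyceride hydrolase activity, was highest, with 43.0 ± 11.9 CPM in J7_MLKL and 9.38 ± 0.814 CPM in J7_CTL (log2 2.30 ± 0.22). In J7_RIPK3 against J7_CTL 10 of 12 were higher and 1 lower (median 0.37), against 29.6% higher, 29.5% lower and a median of 0.00115 for all genes, shares that hold for the lists that follow too, with Ces1d again highest at 155 ± 13.6 CPM in J7_RIPK3 and 9.38 ± 0.814 CPM in J7_CTL (log2 4.05 ± 0.07). Ces1d was also higher in both J0 knockouts, with 61.8 ± 7.56 CPM in J0_MLKL, 24.96 ± 1.72 CPM in J0_RIPK3 and 5.75 ± 0.234 CPM in J0_CTL, and it lies in a family of near-identical carboxylesterase genes whose reads can be split between copies.

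Of the 9 droplet proteins that gate lipases, 7 were tested in J7_MLKL against J7_CTL, with 6 lower, 1 higher and a median of -1.56. Over all genes tested there, 46.4% were lower and 48.5% higher, with a median of 0.17. Plin1, which holds ABHD5, had 193 ± 41.2 CPM in J7_MLKL and 1393 ± 29.8 CPM in J7_CTL (log2 -2.75 ± 0.18). Cidea, a droplet protein of brown and beige fat, was lowest, with 0.0535 ± 0.0196 CPM in J7_MLKL and 2.46 ± 0.361 CPM in J7_CTL. It was close to absent in J7_MLKL, so no fold is given. Plin3 was the gene called higher (log2 0.72 ± 0.12). In J7_RIPK3 against J7_CTL 3 of the 7 were higher and 3 lower, with a median of -0.07. In contrast to J7_MLKL, Cidea was the highest of the list there, at 65.1 ± 6.53 CPM in J7_RIPK3 and 2.46 ± 0.361 CPM in J7_CTL (log2 4.73 ± 0.10), and Plin3 lowest (log2 -0.19 ± 0.04).

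The cAMP and PKA arm, through which lipolysis is switched on, had 19 genes in its list. Among them are Pde3b and regulatory subunits of PKA, so its counts and medians give no direction for the arm. In J7_MLKL against J7_CTL 7 of 12 tested were lower and 4 higher (median -1.04), against 46.4% lower and 48.5% higher of all genes, with Adcy4, an adenylyl cyclase, highest at 1.36 ± 0.35. Adrb1, a beta-adrenergic receptor, was called lowest, on 2 reads in J7_MLKL and 65 in J7_CTL, too few for a fold. In J7_RIPK3 against J7_CTL 4 of 15 were higher and 2 lower (median 0.04), with Prkar2a, a regulatory subunit of PKA, lowest at -0.28 ± 0.04. Adrb3, the receptor typical of adipocytes, had 7.43 ± 3.62 CPM in J7_MLKL, 38.4 ± 1.01 CPM in J7_RIPK3 and 19.96 ± 0.664 CPM in J7_CTL, and at most 3 reads in any J0 group.

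The antilipolytic receptors and the insulin arm, which restrain lipolysis, had 15 genes in their list. In J7_MLKL against J7_CTL 8 of 9 tested were lower and 1 higher (median -1.48), against 46.4% lower and 48.5% higher of all genes, between Hcar2, the niacin receptor, at -4.82 ± 0.25 and Gnai2, an inhibitory G protein subunit, at 0.75 ± 0.15. In J7_RIPK3 against J7_CTL 6 of 12 were higher and 3 lower (median 0.12), between Adora1, an adenosine receptor, at 1.60 ± 0.22 and Ptger3, a prostaglandin receptor, at -2.59 ± 0.57. Ptger3 rests on 6 reads in J7_RIPK3 and 41 in J7_CTL. Hcar1, the lactate receptor, had 3.56 ± 0.412 CPM in J7_MLKL, 94.2 ± 4.78 CPM in J7_RIPK3 and 53.4 ± 2.31 CPM in J7_CTL.

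Of 11 genes that handle fatty acids and glycerol, 10 of 10 tested in J7_CTL against J0_CTL were higher (median 6.57), and in J7_MLKL against J0_MLKL 9 of 9 were higher (median 3.70, against 0.03 for all genes tested in each). Of all genes tested, 48.2% were higher in J7_CTL against J0_CTL and 35.8% in J7_MLKL against J0_MLKL. In J7_MLKL against J7_CTL 9 of 10 were lower and 1 higher (median -2.20), against 46.4% lower and 48.5% higher of all genes, between Pck1, the enzyme of glyceroneogenesis, with 0.698 ± 0.212 CPM in J7_MLKL and 15.3 ± 3.65 CPM in J7_CTL (log2 -4.35 ± 0.31), and Slc27a1, a fatty acid transporter, at 0.31 ± 0.13. In J7_RIPK3 against J7_CTL 8 of 10 were higher and 1 lower (median 0.25), with Pck1 at 111 ± 2.71 CPM in J7_RIPK3 and 15.3 ± 3.65 CPM in J7_CTL (log2 2.86 ± 0.09) and Dgat1, which makes triglyceride, at -0.16 ± 0.04. Pck1 had 0 reads in each J0 group, so no fold is given for its differentiation change. Setting genes with 0 reads in a group to a bound of 3 reads over that group left the differentiation medians given here and for the hydrolases at the same values.

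Of 14 transcription factors known to act on Pnpla2 or Lipe, 8 were tested in J7_MLKL against J7_CTL, with 6 lower and 2 higher (median -0.89), against 46.4% lower and 48.5% higher of all genes. Cebpa was lowest, with 35.8 ± 11.2 CPM in J7_MLKL and 397 ± 16.3 CPM in J7_CTL (log2 -3.37 ± 0.25), and Egr1, an immediate early factor, highest (log2 0.90 ± 0.15). Pparg had 71.2 ± 16.5 CPM in J7_MLKL and 491 ± 6.87 CPM in J7_CTL (log2 -2.68 ± 0.18). In J7_RIPK3 against J7_CTL 7 of 13 were higher and 3 lower (median 0.12), between Irf4, which in mice is known to promote lipase expression in fasting, on 85 reads in J7_RIPK3 and 21 in J7_CTL (log2 2.11 ± 0.38), and Pparg, with 370 ± 16.5 CPM in J7_RIPK3 and 491 ± 6.87 CPM in J7_CTL (log2 -0.40 ± 0.03). Pparg was thus lower in J7_RIPK3 than in J7_CTL, while Mgll was higher and Pnpla2 and Lipe were not called.

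**Figure D5:**
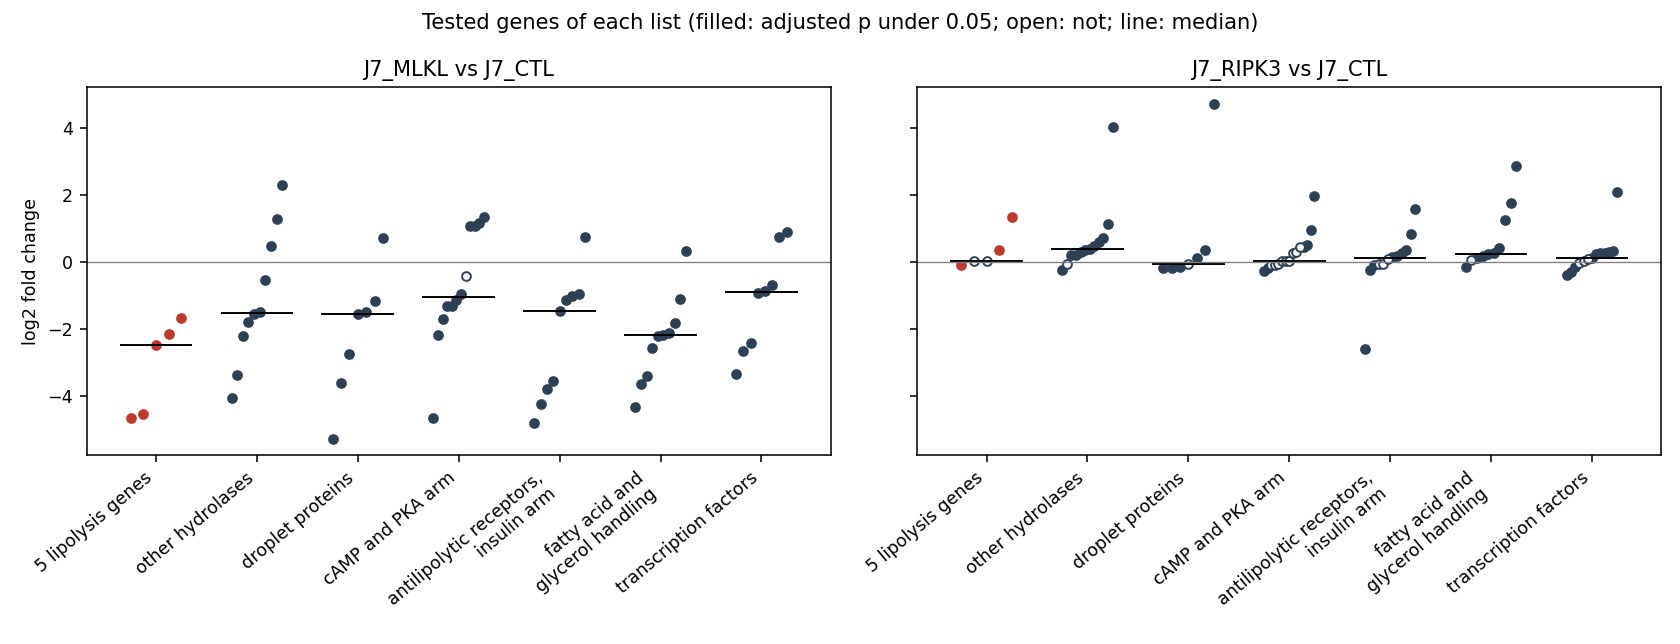
Log2 fold changes of the tested genes of each list (points, filled where the adjusted p was under 0.05) and list medians (lines), for J7_MLKL vs J7_CTL on the left and J7_RIPK3 vs J7_CTL on the right, with the 5 lipolysis genes leftmost. On the left all 6 list medians lie below 0, between -2.20 and -0.89, and on the right they lie between -0.07 and 0.37.

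In the authors' deposited table of KEGG pathways, the term for regulation of lipolysis in adipocytes was listed with 36 genes for J7_MLKL against J7_CTL, 11 up and 25 down, with an adjusted p of 0.000487 and rank 4 of 319 pathways. For J7_MLKL against J0_MLKL the authors' deposited table listed 17 genes, 10 up and 7 down, with an adjusted p of 0.00270 and rank 2 of 310. In the authors' deposited tables for the other 5 comparisons the adjusted p of this term was 0.0820 to 0.380. The term held Pnpla2, Lipe, Mgll and Abhd5 but not G0s2 in the authors' deposited table for J7_MLKL against J7_CTL.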

How the data were processed

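Per the submitters' processing notes, the tools were FastQC 0.11.9, HISAT2, featureCounts 1.5.0-p3 and DESeq2 on mouse build mm10. The deposited tables give, per library, the raw read count, the authors' normalised count (signal, the count over a size factor) and the authors' FPKM, and per gene the authors' log2 fold change, p-value and adjusted p-value, with length and coordinates in the other deposited columns. All rows of the 7 tables have an adjusted p of the authors below 0.05, which means that the genes tested here were preselected. In the authors' pathway tables the listed, up and down genes are given as a count. No strandedness is stated, so overlapping or antisense transcription cannot be separated.

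Counts were joined by gene identifier, which gave 15194 genes, 12666 of them protein-coding and 2802 with counts in all 18 libraries. Of 88950 counts that several tables repeat, 0 differed. Library totals were recovered from count, FPKM and length, and CPM is the count per 1e6 reads of that total. Listed genes hold 29.3 to 30.4% of the reads in J0_MLKL, 53.5 to 54.5% in J7_MLKL and 90.0 to 98.4% in the other groups. edgeR 4.0.16 (R 4.3.3; TMM factors, filterByExpr, quasi-likelihood F test) was fitted to the groups compared, and p-values were adjusted by Benjamini-Hochberg over all genes tested in that comparison. Standard errors were derived from the F statistic, and folds are ratios of pooled reads over pooled totals. The edgeR fit was run on simulated data for J7_CTL against J0_CTL and J7_MLKL against J0_MLKL, with a small part of the genes changed. That run does not check the interaction term, or the scaling where most genes change. Alternatives changed the scaling, the filter on low counts (none, or a mean of at least 50), the test (DESeq2 1.42.0), the grouping by genotype field, the replicate block and the libraries.

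The members, gene lists and tests were chosen with earlier results of these data known. Named genes are the members, Mlkl and Ripk3, the 3 most similar genes per member (log2 of CPM + 0.5, mean of at least 1 CPM), and from each list the called genes with the largest and smallest change, with further list genes chosen after their values were seen. Promoter windows are from RefSeq, and in them no base after the start was used. A list gene that the rule would name is not reported here.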

Additional observations from a re-analysis of the deposited data

Results flagged for a closer look

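The differentiation change (J7 minus J0, log2) of a knockout differed from that of CTL in 9 of 10 tests of the difference itself, where 65.3% of all genes tested were called for MLKL and 39.0% for RIPK3. For MLKL these were Mgll at -6.30, G0s2 at -4.69, Lipe at -2.40, Pnpla2 at -2.27 and Abhd5 at -1.97, each a smaller change in MLKL. The G0s2 call was lost without J0_MLKL 2 (edgeR adjusted p = 0.168). With the J7 knockouts grouped by the genotype field, 2 members were called for MLKL. For RIPK3 they were Mgll at 1.12, Lipe at 0.48 and Pnpla2 at 0.30, each a larger change in RIPK3, and Abhd5 at -0.31, a smaller one. For Lipe and Pnpla2 the larger change goes with a lower level in J0_RIPK3 than in J0_CTL, and J7_RIPK3 was not called against J7_CTL. Dixon's test for a library far from the others was not applied, since it was not used for groups of 3, and the libraries that stood apart by chi-square are named in the results above.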

How the results depend on the processing

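Under the scaling, filter, test, block and leave-out alternatives, 5 of 5 members kept their direction and call in J7_CTL against J0_CTL, J7_RIPK3 against J0_RIPK3, J7_MLKL against J7_CTL and J7_MLKL against J7_RIPK3. Grouping the J7 knockouts by the genotype field gave 2854 genes called for RIPK3 differentiation and 3081 for MLKL differentiation. It left 2 members called in the MLKL difference of changes. The sign was reversed for Mgll in MLKL differentiation (5.64) and for Lipe in the MLKL difference (0.22). It was also reversed for Pnpla2 (-1.91), Lipe (-2.07) and Mgll (-4.91) in the RIPK3 difference. G0s2 in the MLKL difference moved to 0.30 ± 0.49 and was not called (edgeR adjusted p = 0.628). In J0_MLKL against J0_CTL 1 member was called with the replicate block, and 1 to 4 without a library. Leaving out a library moved Pnpla2 there between -0.22 (without J0_MLKL 2) and 0.20 (without J0_MLKL 1). In J0_MLKL against J0_RIPK3 1 member was called with total reads only, with the sum of listed counts, with the DESeq2 test and with the replicate block, where Lipe was lost, and with a mean of at least 50 counts, where Mgll was no longer tested, and 1 to 2 without a library. The cause was not tested. The replicate numbers do not pair the libraries. Deviations of same-numbered libraries correlated at 0.390, -0.651 and -0.536 between J7_MLKL and J0_MLKL and within ±0.1 elsewhere. Between J7_MLKL and J0_MLKL the highest correlation was 0.704, for J7_MLKL 3 with J0_MLKL 2, the libraries that stood apart by chi-square. J7_MLKL 1 and J7_MLKL 2 each correlated best with J0_MLKL 3. A link between libraries of different number was not tested, and the block by replicate number does not check for it. The block changed no other count of members, and called 1734 genes in J7_MLKL against J0_MLKL, against 2051 without it. Depth limits G0s2 and Mgll at J0, with 16 to 24 and 54 to 134 reads per group, and Mgll in J7_MLKL, with 83 reads.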
